A study of Mus musculus with 4 samples.

Results

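The cells described here were chosen for transcripts of mural cells, the pericytes and smooth muscle cells that wrap blood vessels. A barcode was a member when it had at least 1 raw unique molecular identifier (UMI) in at least 3 of the 5 genes Rgs5, Myh11, Acta2, Notch3 and Mcam, among barcodes with at least 200 genes and at most 20% mitochondrial UMIs. Of 15670 kept barcodes 168 were members. They were 83 of 10063 (0.825%, 95% interval 0.657 to 1.02) in the library of the young mouse and 85 of 5607 (1.52%, 1.21 to 1.87) in that of the old mouse. Intervals are exact Clopper-Pearson for shares and exact Poisson for sums of UMIs throughout, and they cover counting error only. The interval of a median comes from ranked barcodes and covers the spread over barcodes.

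The libraries came from femur and tibia of 2 mice, 1 young mouse of 6 months and 1 old mouse of 24 months. Both carried the INK-ATTAC transgene, in which part of the p16 promoter drives a caspase 8 that can be switched on, and neither was treated, so no group without the transgene was compared here. Marrow digested with Liberase and bone digested with collagenase were pooled, red cells were lysed, lineage-marked blood cells were depleted on magnetic beads, and live CD45- cells were sorted. Each cell had been stained with an oligonucleotide-tagged CD24 antibody (CITE-seq), and RNA and antibody were counted as UMIs in 10x Genomics 3′ libraries. The shares therefore describe digested and sorted cells and not the tissue. With 1 mouse per age, age, mouse and library cannot be told apart, an exact test over 2 mice could not fall under 0.5, and no test was made.

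Mural cells lie on the outer side of the endothelium, within its basement membrane. Smooth muscle cells of arteries and arterioles form a contractile coat built of smooth muscle actin (Acta2), smooth muscle myosin (Myh11) and their regulators, while pericytes of capillaries carry less of this apparatus and are marked by the potassium channel genes Kcnj8 and Abcc9 and by Rgs5, which dampens G protein signals. Endothelial cells recruit them through platelet-derived growth factor and its receptor Pdgfrb and instruct them through Notch3. In marrow, reticular stromal cells that express Lepr and Cxcl12 also sit around sinusoids and share some of these genes.

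The transcripts of the contractile apparatus are known targets of serum response factor, which binds the CArG box, CC followed by 6 A or T bases and GG. Promoters reaching from 250 bases before the start of a gene to 50 after it were taken from RefSeq (GRCm38.p6) for 18 of the 22 contractile genes listed here and for 4 of the 5 rule genes, Myh11 having no entry. The exact box, searched on both strands, occurred in 1 of the 18 contractile promoters, that of Myl9, and in 1.62% of 27025 genes. When 1 of the 6 middle bases was allowed to be C or G, a search added after seeing the data, Acta2 was the only rule gene of 4 with a box, Myl9 remained the only contractile gene, and 9.78% of all genes had one. At least 2 such boxes were present in both promoters and in 0.759% of all genes. The stretches around the boxes of Acta2 and Myl9 are shown because no other rule or contractile gene searched had a box, and the boxes are in capitals. That of Acta2 is at chr19:34255378-34255477 on the minus strand and that of Myl9 at chr2:156775283-156775394 on the plus strand.
Acta2: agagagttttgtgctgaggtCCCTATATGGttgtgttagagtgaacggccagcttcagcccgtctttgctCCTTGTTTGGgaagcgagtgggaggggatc
Myl9: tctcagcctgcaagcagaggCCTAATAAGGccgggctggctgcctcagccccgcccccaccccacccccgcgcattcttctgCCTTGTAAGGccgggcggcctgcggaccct

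The members were chosen by the UMIs of the 5 rule genes, so the levels of these genes are a description. Acta2 reached 9380.2 CPM (UMIs summed over barcodes and scaled to the same total) in young and 9333 CPM in old members, against 40.8 and 37.9 CPM in the other kept barcodes. Myh11 stood at 2446 and 2508 CPM against 3.13 and 1.59 CPM. Rgs5 stood at 1690.0 and 1504 CPM against 13.0 and 9.13 CPM. Notch3, the mural Notch receptor, was the least particular of the 5, with 479 and 436 CPM against 40.4 and 41.8 CPM. Mcam, the adhesion molecule CD146, had 209 and 336 CPM and was nearly absent elsewhere, at 0.335 and 0.273 CPM.

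A UMI of Myh11 was found in 95.2% of young and 89.4% of old members, of Acta2 in 85.5% and 91.8%, and of Notch3 in 86.7% and 92.9%. Mcam was found in 61.4% and 80.0% and Rgs5 in 61.4% and 38.8% of members. The median depth was 5139 UMIs in young and 8335 UMIs in old members, against 6397.5 and 9747.5 UMIs in the others. In 322 young and 346 old erythroid barcodes, which should lack these genes, no rule gene was found in more than 3.47% although their median depth was 14884.5 and 17530.5 UMIs. After each barcode was thinned to 2000 UMIs, which left out 4 young members and no old one, Acta2 was found in 81.0% and 78.8%, Notch3 in 50.6% and 55.3%, Mcam in 41.8% and 52.9%, and Rgs5 in 44.3% and 22.4% of members.

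Members just inside the threshold had more Tagln, a gene the rule did not use, than barcodes just outside it. With 3 rule genes, 29 young and 23 old members had 3255 and 3610 CPM of Tagln, the actin-binding transgelin of smooth muscle, while 289 young and 236 old barcodes with 2 rule genes had 135 and 308 CPM. With 4 rule genes Tagln stood at 15424 and 16006 CPM. The median count of contractile genes was 7 and 8 with 3 rule genes and 5 and 6 with 2. Young members with 3 rule genes also held 15613 CPM of the stromal chemokine Cxcl12, against 930 CPM with 4 rule genes, and the old values were 4741 and 1198 CPM. Barcodes with 2 rule genes held 18057 CPM of Cxcl12 in the young and 11630 CPM in the old mouse, so young barcodes on both sides of the threshold were rich in it. The lowest level of the rule thus took in barcodes rich in stromal transcripts. The most frequent combinations were all 5 genes in 21 young and 17 old members and Myh11, Acta2, Notch3 and Mcam without Rgs5 in 19 and 42.

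Genes outside the rule were compared between members and the other kept barcodes, each library on its own, as log2 ratios with 1 CPM added. A gene was past the threshold when it was 4-fold apart in the same direction in both libraries. Of 9339 genes with enough UMIs, 294 (3.15%) were higher and 262 (2.81%) lower in members, and the median over all genes was -0.13 for the young library and -0.04 for the old one. The rule used this same contrast, so these counts were not tested and nothing is read from their number.

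The contractile apparatus was the leading group. Of its 22 listed genes 21 had enough UMIs and 20 were past 4-fold, with a median log2 ratio of 5.20 in the young and 4.99 in the old library. Tagln stood at 8861 and 9784 CPM against 20.7 and 32.3 CPM in the others. Myl9, the regulatory light chain of smooth muscle myosin, stood at 2984 and 3064 CPM against 51.0 and 52.1 CPM. Tpm2, a tropomyosin, stood at 4371 and 3551 CPM against 93.6 and 76.3 CPM.

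Regulators of contraction were high as well. Mylk, the kinase that activates myosin, had log2 ratios of 3.39 and 3.19, Lmod1, a nucleator of actin filaments, 6.42 and 6.39, and Cnn1, the actin-binding calponin, 6.90 and 6.68. Pln, the phospholamban that restrains the calcium pump of the sarcoplasmic reticulum, was at 362 and 576 CPM in members and under 1 CPM in the others. Myocd, the cofactor that drives the smooth muscle programme with serum response factor, was rare even in members, at 46.2 and 42.7 CPM, and almost unseen elsewhere. Tpm1 was the only tested contractile gene not past 4-fold in both libraries, with 2.20 and 1.92, and the others held 606 and 699 CPM of it. Kcnmb1 had too few UMIs to be tested.

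Receptors and channels that set vascular tone formed the next group, with all 14 tested of 18 genes past 4-fold and medians of 2.75 and 3.15. This count depends on the filter. Of the genes not tested, Agtr1a (0.54 and 0.27), Adra1b (1.15 and 0.85) and Adora2a (1.00 and 1.14) were within 4-fold. Adra1a (2.57 and 2.05) was past it. Gucy1a1 and Gucy1b1, the subunits of the nitric oxide receptor guanylate cyclase, had log2 ratios of 5.47 and 4.95, and 4.43 and 3.86. Among enzymes that break down cyclic nucleotides, Pde3a had 4.56 and 4.32 and Pde5a 2.16 and 2.43. Among receptors, Ednra for endothelin had 2.43 and 2.50 and Avpr1a for vasopressin 3.97 and 3.41. Kcna5, a potassium channel, had 49.9 and 33.5 CPM in members and next to no UMIs in the others. The angiotensin receptor Agtr1a was too rare to count, with 7.40 and 6.92 CPM.

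Pericyte genes gave a mixed picture, with 5 of 12 past 4-fold and medians of 1.81 and 2.33. Higd1b stood at 118 and 103 CPM against 1.07 and 0.365 CPM, and Rgs4, a relative of Rgs5, at 257 and 263 CPM against 2.68 and 5.85 CPM. Kcnj8, Cox4i2 and Art3 were the others past the threshold. Pdgfrb was less than 4-fold apart, at 438 and 354 CPM against 207 and 205 CPM in the others. Cspg4, which encodes the NG2 proteoglycan, had log2 ratios of 1.33 and 2.18 and Anpep -2.48 and -0.74.

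In the Notch pathway the effectors Hey2, Heyl and Nrarp were past 4-fold among 8 tested genes. Hey2 had log2 ratios of 5.00 and 5.09, Nrarp 5.11 and 5.28 and Heyl 2.49 and 2.20. The ligand gene Jag1 had 1.94 and 2.11, and Hes1, another effector, 1.63 and 0.99. Of 14 tested mural transcription factors Tbx2, Foxs1, Foxf1 and Nr2f2 were higher and Foxd1 lower past 4-fold, with Nr2f2 at 287 and 269 CPM against 17.8 and 23.1 CPM. Srf itself, the serum response factor, was at 14.8 and 12.7 CPM, little above the 8.41 and 8.57 CPM of the others.

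Basement membrane genes and integrins were split, with 5 of 17 past 4-fold and medians of 0.87 and 1.03. The integrin genes Itga7, with log2 ratios of 6.19 and 5.60, and Itga8, with 3.91 and 4.15, were higher, as were the laminin chain Lama5, Col18a1 and Sparcl1. Among 16 tested genes of platelet-derived, angiopoietin, VEGF and TGF-beta signalling Pdgfa was past 4-fold, at 318 and 455 CPM against 55.9 and 67.9 CPM. The others went both ways, with Epas1 at 1.67 and 1.53 and the receptor gene Pdgfra at -1.51 and -1.62 on the log2 scale. Of 10 immediate-early and heat shock genes, which respond to tissue digestion, none was past 4-fold, and their medians were 0.84 and 0.80.

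**Figure D1:**
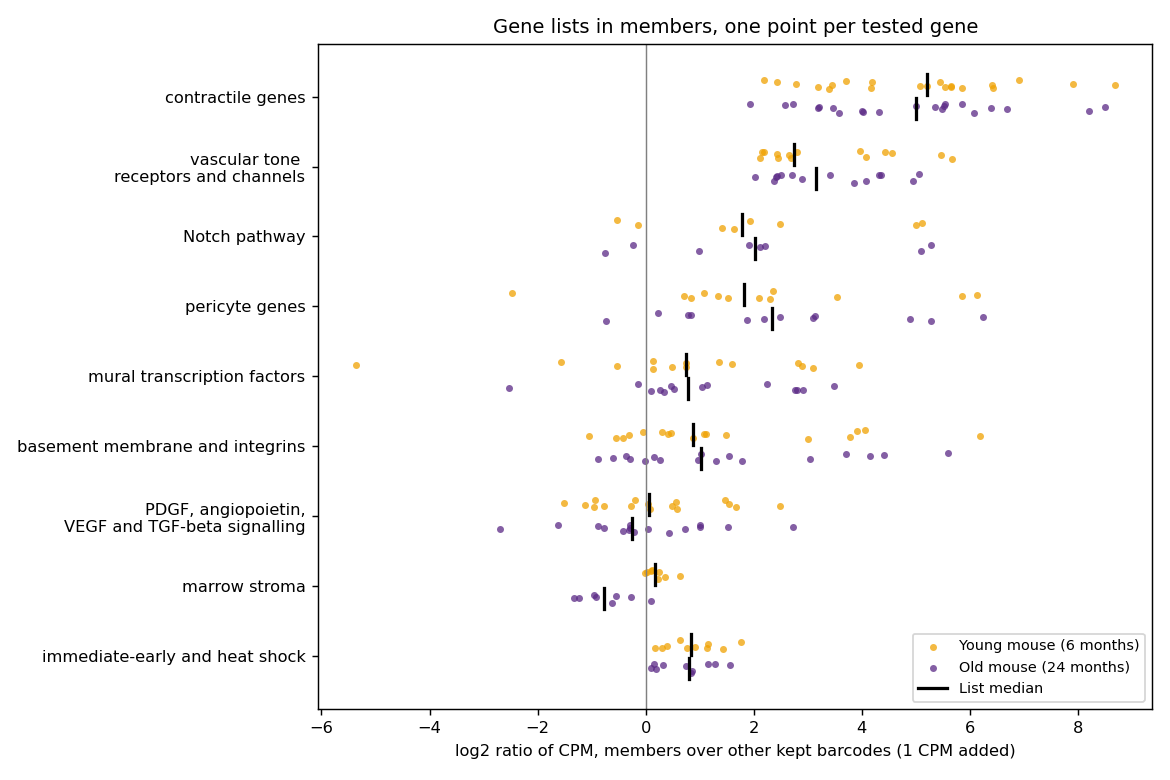
Each point is 1 tested gene of a list, placed by its log2 ratio of CPM in members over the other kept barcodes with 1 CPM added, for the young and the old mouse. Black bars are list medians, which are highest for contractile genes (5.20 and 4.99) and lowest in the old mouse for marrow stroma (-0.78).

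The 15 genes with the highest ratios outside or inside the lists included the rule genes Rgs5, Myh11, Acta2 and Mcam and the contractile genes Tagln, Cnn1 and Pln. The others were Olfr558, Pcp4l1, Npy1r, Gm37800, Pdlim3, Tinagl1, Bcam and Sncg. Olfr558, an olfactory receptor gene, was at 178 and 163 CPM in members and under 0.1 CPM in the others. Npy1r, a receptor of the sympathetic transmitter neuropeptide Y, stood at 205 and 286 CPM against 0.658 and 0.851 CPM. Sncg, a synuclein, reached 906 and 849 CPM and Bcam, a laminin receptor, 364 and 325 CPM.

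The 10 genes with the lowest ratios were mostly of red cells and of dividing cells. Hbb-bs, a haemoglobin chain, stood at 25.9 and 68.1 CPM against 1618 and 3979 CPM in the others. Hba-a1, Hbb-bt, Car1 and Car2 belong to the same lineage. Mki67, present in dividing cells, had 0 UMIs in young members, which allows 3 UMIs, and 10 in old ones. The rest were Pi16, Stmn1, 1700019D03Rik and Sema3c.

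The label was checked against markers of other cell types. Of 9 endothelial genes only Esam was tested, and it was higher, at 79.5 and 87.7 CPM. Pecam1 and Cdh5, which define endothelium, had 0 UMIs in all members of both libraries, as had Kdr, Egfl7, Tie1 and Cldn5, while Emcn had 4 and 1 UMIs and Flt1 3 and 1. Endothelial genes were rare in the whole libraries, since only 0.100% and 0.181% of the others had at least 3 of the 9. The zeros therefore say little about the members. No member had 3 or more genes of the erythroid, macrophage, Schwann or skeletal muscle lists. Of the others 3.23% and 6.27% did for the erythroid list. The shares were only 0.180% and 0.199% for skeletal muscle, 0.0301% and 0.0543% for Schwann cells and 0.0100% and 0% for macrophages. For these rare lists the absence among members therefore says little. A single young member had at least 3 neutrophil genes and held 99.1% of the 990 S100a9 UMIs of all young members. At least 3 fibroblast genes were found in 4 young and 9 old members, 3 osteoblast genes in 8 and 5, 3 chondrocyte genes in 2 and 4, and 3 tendon genes in 0 and 2, in each case a smaller share than in the others. Marrow stroma was the most frequent of these lists. At least 3 of its 8 genes were found in 62.7% of young and 74.1% of old members, beside 55.3% and 65.2% of the others. Their summed level was 10527 and 4718 CPM in members and 10043 and 9851 CPM in the others.

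The members were therefore divided by their transcripts, after the values had been seen, and the subsets are descriptions only. Members with a UMI of both Lepr and Adipoq were set apart first, then members with Kcnj8 and either Abcc9 or Higd1b, then members with at least 10 of the 22 contractile genes. The contractile subset held 59 young members (71.1%) and 61 old members (71.8%). The Lepr and Adipoq subset held 15 (18.1%) and 12 (14.1%), the Kcnj8 subset 4 and 8, and 5 and 4 members remained. The genes that defined a subset are high in it by construction.

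In the contractile subset the 22 contractile genes together made up a median of 374.9 UMIs per 10000 in the young mouse, from 105 to 933, and 450.0 in the old mouse, from 125 to 860.4. Every such member had Acta2, with a median of 137 UMIs per 10000 in both mice. The 8 stroma genes together reached at most 23.5 and 29.0 UMIs per 10000 there. No contractile member was called a doublet, against 2.67% and 1.02% of all barcodes of the libraries and 2 young members and 1 old member in all. The intervals of the contractile subset reach 6.06% and 5.87% and so include the shares of the libraries.

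The Lepr and Adipoq subset had the opposite profile. Cxcl12 had a median of 263 UMIs per 10000 in its young members, from 108 to 401, and 199.5 in its old members, from 9.11 to 283. Their median Acta2 level was 0 in the young mouse and 0.738 UMIs per 10000 in the old, and the median count of Myh11 was 1 UMI in both. They held 96.8% and 92.8% of all Cxcl12 UMIs of the members and 98.7% and 98.7% of the Lepr UMIs. Lepr stood at 1517 and 1035 CPM there and at 1450.0 and 1514 CPM in the 2709 young and 1726 old barcodes with both genes that were not members. Those barcodes had 144 and 134 CPM of Notch3, but 20.9 and 18.0 CPM of Rgs5 and 8.22 and 3.90 CPM of Myh11. Some members of the subset had more than low counts of mural genes. A pair of old ones had 179 and 65.5 UMIs of Acta2 per 10000 with 21 and 17 contractile genes, and a young one had 36 Rgs5 UMIs, 19 Acta2 UMIs and 12 contractile genes.

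**Figure D2:**
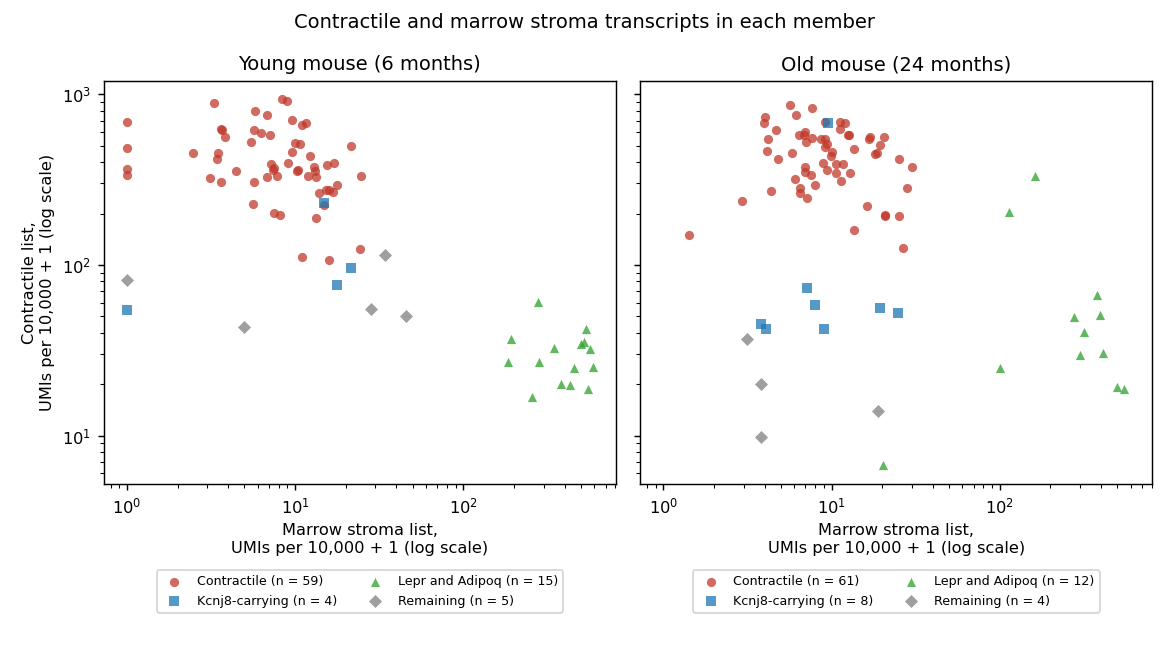
Each point is 1 member, placed by the summed UMIs per 10000 of the 8 marrow stroma genes (x) and of the 22 contractile genes (y), both with 1 added and on log scales, for the young mouse (left) and the old mouse (right). The 59 and 61 contractile members lie at the upper left and the 15 and 12 members with Lepr and Adipoq mostly at the lower right.

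In the Kcnj8 subset Rgs5 was high in most members. In its 4 young members Rgs5 had 14, 50, 66 and 88 UMIs, and in the 8 old members it had 0, 89, 95, 128, 128, 162, 236 and 266. A single old member of the subset without Rgs5 had 18 contractile genes and 187 Acta2 UMIs per 10000, whereas the median of Acta2 over the old subset was 1.40. Kcnj8, the pore of the vascular potassium channel, stood at 185 and 751 CPM in the subset and Abcc9, its partner, at 79.4 and 949 CPM, both being genes that defined it. Pdgfrb stood at 1059 and 959 CPM, above the 245 and 209 CPM of the contractile subset. A pair of other pericyte genes was not higher there, with Rgs4 at 52.9 and 277 CPM against 413 and 393 CPM in the contractile subset, and Cspg4 at 0 and 218 CPM against 165 and 237 CPM. Col4a1, a chain of basement membrane collagen, stood at 397 and 3025 CPM, and the contractile subset had 383 and 511 CPM. A single young Kcnj8 member, called a doublet, held 23841 of the 37776 RNA UMIs of the young Kcnj8 subset. The young CPM values of the subset therefore rest mostly on that barcode.

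The Kcnj8 members held 84.7% of the Rgs5 UMIs of all old members, against 23.9% in the young mouse, and 40.7% of the Col4a1 UMIs, against 7.25%. Kcnj8 had 1 to 3 UMIs in each young member of the subset, so shallow barcodes can miss it, and the 5 young members outside all subsets held a further 15.5% of the young Rgs5 UMIs. Rgs5 in the young mouse lay mostly in the contractile subset, with 53.0% of the UMIs.

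**Figure D3:**
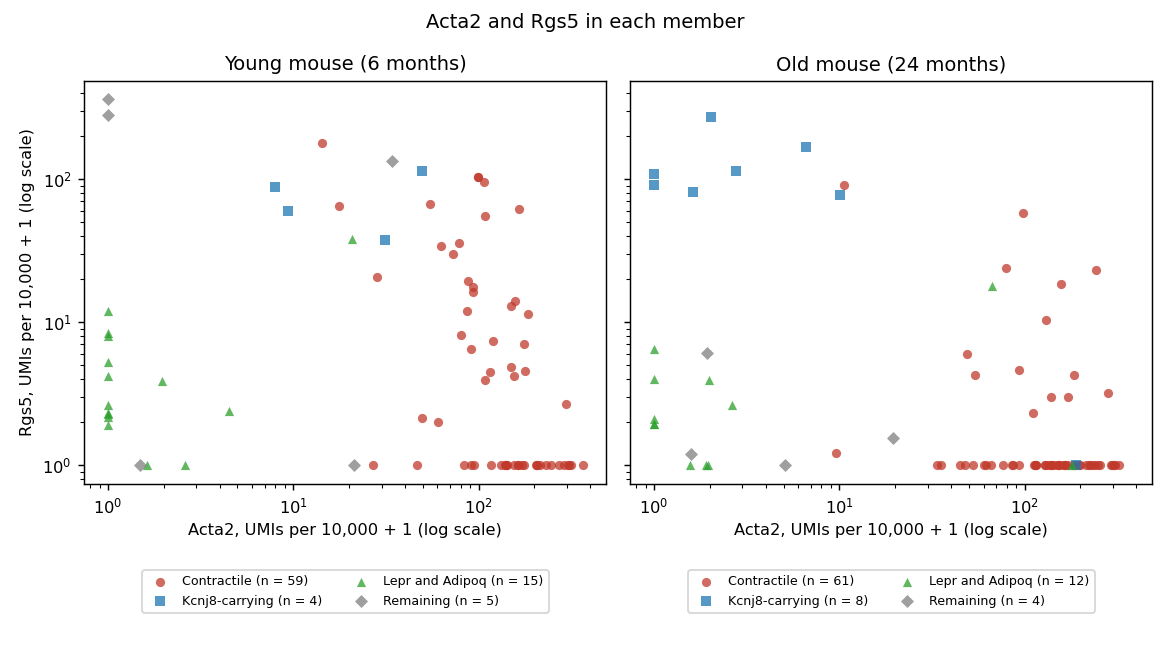
Each point is 1 member, placed by its UMIs per 10000 of Acta2 (x) and of Rgs5 (y), both with 1 added and on log scales, for the young mouse (left) and the old mouse (right). Of the contractile members 31 of 59 young and 15 of 61 old lie above the bottom line of no Rgs5 UMI, and 7 of the 8 old Kcnj8 members lie at the upper left.

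The contractile subset of the old mouse had less Rgs5 than that of the young mouse. Rgs5 was also 1 of the 5 rule genes that admitted members, so this contrast is a description. Mcam, another rule gene, was found in 46 of 59 young and 55 of 61 old contractile members, and Notch3 in 48 and 57. The contrast also depends on the division into subsets. Kcnj8 members were set apart before the contractile ones, and they held 84.7% of the old but 23.9% of the young Rgs5 UMIs. The effect of the rule and of this division on the Rgs5 values was not tested. A UMI of Rgs5 was found in 31 of 59 young (52.5%, 39.1 to 65.7) and in 15 of 61 old contractile members (24.6%, 14.5 to 37.3). The old members were deeper, with a median of 6899 against 4573 UMIs. At a fixed 2000 UMIs it was found in 24 of 58 (41.4%) and 9 of 61 (14.8%). The summed level was 1482 CPM in the young and 282 CPM in the old subset, a ratio of 0.190 (0.157 to 0.230), and the same ratio on the log2 scale was -2.39. The UMIs were concentrated, since the 5 highest members held 63.2% of them in the young and 81.8% in the old subset, and at least 10 UMIs were found in 18.6% (9.69 to 30.9) and 9.84% (3.70 to 20.2) of members, whose intervals overlap. Without the 5 highest young members the ratio was 0.461 (0.367 to 0.577), without the 5 highest of each mouse 0.0890 (0.0566 to 0.135), and in members with at least 15 contractile genes 0.132 (0.0947 to 0.181). These choices of members were made after seeing the data. In the other kept barcodes the log2 ratio of Rgs5 was -0.46. Over all members it was -0.17, and over all members but those with Lepr and Adipoq it was -0.29. In both of these sets the old Kcnj8 members held most of the old UMIs. Higd1b, also a pericyte gene, stood at 144 and 63.2 CPM in the contractile subset, a ratio of 0.439 (0.271 to 0.702). Art3 had 13 UMIs in 7 young contractile members and 0 in old ones, which allows 3 UMIs. The pericyte list as a whole did not differ in this way, with a median log2 ratio of -0.06 over 6 tested genes, of which Higd1b was past 2-fold. Rgs4 had a ratio of 0.950 (0.760 to 1.19), Cox4i2 of 0.972 (0.696 to 1.37), Ndufa4l2 of 1.07 (0.824 to 1.38), Pdgfrb of 0.854 (0.633 to 1.16) and Cspg4 of 1.43 (1.03 to 2.01).

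The contractile genes did not show this difference, but the subset was chosen by at least 10 of these same 22 genes. Acta2, Myh11, Notch3 and Mcam were also rule genes. Their ratios are therefore a description, and the effect of the choice was not tested. With 1 CPM added none of the 22 listed genes was past 2-fold between the ages in the contractile subset. Of all 3378 genes compared there, 4.35% were higher and 2.52% lower past 2-fold. The median log2 ratio of the 22 genes was -0.02. Casq2, the calcium store protein calsequestrin, was at the limit, with -0.99 on that scale and a plain ratio of 0.496 (0.262 to 0.923). Acta2 had a ratio of 0.977 (0.942 to 1.01), Myh11 of 1.01 (0.944 to 1.09) and Myl9 of 1.00 (0.942 to 1.07). Notch3 had a ratio of 0.990 (0.817 to 1.20). Several genes had intervals that did not include 1. These intervals cover the counting error of summed UMIs and not the spread over members or mice. Pln was higher in the old mouse with 1.58 (1.33 to 1.87), Mcam with 1.50 (1.19 to 1.91) and Cald1, the actin-binding caldesmon, with 1.35 (1.24 to 1.47), while Tpm2 was lower with 0.793 (0.750 to 0.838), Mylk with 0.820 (0.740 to 0.910) and Cnn1 with 0.721 (0.523 to 0.995). The lower ratios rested partly on the deepest old contractile member. Without it the log2 ratio was -0.21 in place of -0.34 for Tpm2, -0.14 in place of -0.29 for Mylk and -0.33 in place of -0.47 for Cnn1. Pln was then at 0.80 in place of 0.66 and Mcam at 0.73 in place of 0.58. Ryr2, the calcium release channel, had 16 and 53 UMIs, a ratio of 2.13 (1.20 to 4.00).

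Hes1 was lower in the old contractile subset, at 949 CPM in the young and 469.7 CPM in the old mouse, a ratio of 0.495 (0.416 to 0.588), while its log2 ratio in the other barcodes was -0.12. Without the deepest old contractile member the log2 ratio of Hes1 in the subset was -0.87 in place of -1.01, within 2-fold. The other tested Notch genes stayed within 2-fold, with Hey2 and Nrarp at -0.29 each on the log2 scale. Hspa1a, a heat shock gene that responds to handling, also differed, at 2098 and 1072 CPM, and stood at 572 and 376 CPM in the other barcodes. The part of handling in these ratios was not tested.

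Over all members 3570 genes with at least 50 CPM in the members of either mouse were compared between the ages, and 113 (3.17%) were more than 2-fold higher and 105 (2.94%) more than 2-fold lower in the old mouse. In the contractile subset 147 of 3378 genes (4.35%) were higher and 85 (2.52%) lower. No contractile gene was among them in either set, and of 8 tested pericyte genes Kcnj8 and Abcc9 were higher over all members, with log2 ratios of 2.69 and 2.07. In the contractile subset Kcnj8 had 0 and 1 UMIs, and Abcc9 stood at 15.3 and 13.8 CPM. Col4a1 had 383 and 867 CPM over all members, and its log2 ratio of 1.18 was 0.42 in the contractile subset.

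The 10 named genes higher in old members were Sept9, Pdgfc, Plat, Rbm28, Sgcb, Dennd6a, Mon2, Ltbp4, Elk3 and Pcdh1, with log2 ratios from 1.36 to 1.73 and between -0.14 and 0.09 in the other barcodes. Pdgfc, a platelet-derived growth factor, was found in 6 of 59 young and 32 of 61 old contractile members, and stood at 24.5 and 96.7 CPM there, a ratio of 3.95 (1.85 to 9.65). At 2000 UMIs it was found in 3.80% of all young and 15.3% of all old members, and in 1.86% of young and no old erythroid barcodes at full depth. Sgcb, which encodes a sarcoglycan of the muscle membrane complex, had 3 and 35 UMIs in the contractile subset, a ratio of 7.52 (2.37 to 38.2). Ltbp4, a binding protein of latent TGF-beta, had a ratio of 3.31 (1.45 to 8.82), and the protocadherin Pcdh1 of 2.45 (1.20 to 5.51). Plat and Dennd6a were within 2-fold in the contractile subset.

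Some of the age ratios rested on 1 barcode. The deepest old contractile member had 47602 UMIs, and without it the log2 ratio of Tgfb1 in the subset was 1.11 in place of 1.92, that of Sept9 was 0.40 in place of 0.98 and that of Elk3 was 0.30 in place of 0.98. Without it Rgs5 remained at -2.26, Pdgfc at 1.96 and Sgcb at 2.88.

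The 10 named genes lower in old members were Cldn10, Pappa, Igf2, C2, Rb1, Lysmd3, mt-Nd6, Hp, AY036118 and Igsf3, with log2 ratios from -2.46 to -1.55. Some of them followed the Lepr and Adipoq members. Hp, which encodes haptoglobin, stood at 1605 and 537.8 CPM over all members, and 99.2% and 97.9% of its UMIs lay in that subset, while its log2 ratio in the contractile subset was -0.21. Pappa had 97.5% and 100% of its UMIs there, and Cxcl12, with a log2 ratio of -1.37 over all members, had -0.26 in the contractile subset. Others were lower within the contractile subset. Rb1, the retinoblastoma gene, stood at 104 and 29.6 CPM, a ratio of 0.284 (0.144 to 0.536), with a log2 ratio of 0.35 in the other barcodes. Igf2 had a ratio of 0.439 (0.212 to 0.886) and AY036118 of 0.315 (0.250 to 0.396), and AY036118 was also lower in the other barcodes, with a log2 ratio of -0.41.

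**Figure D4:**
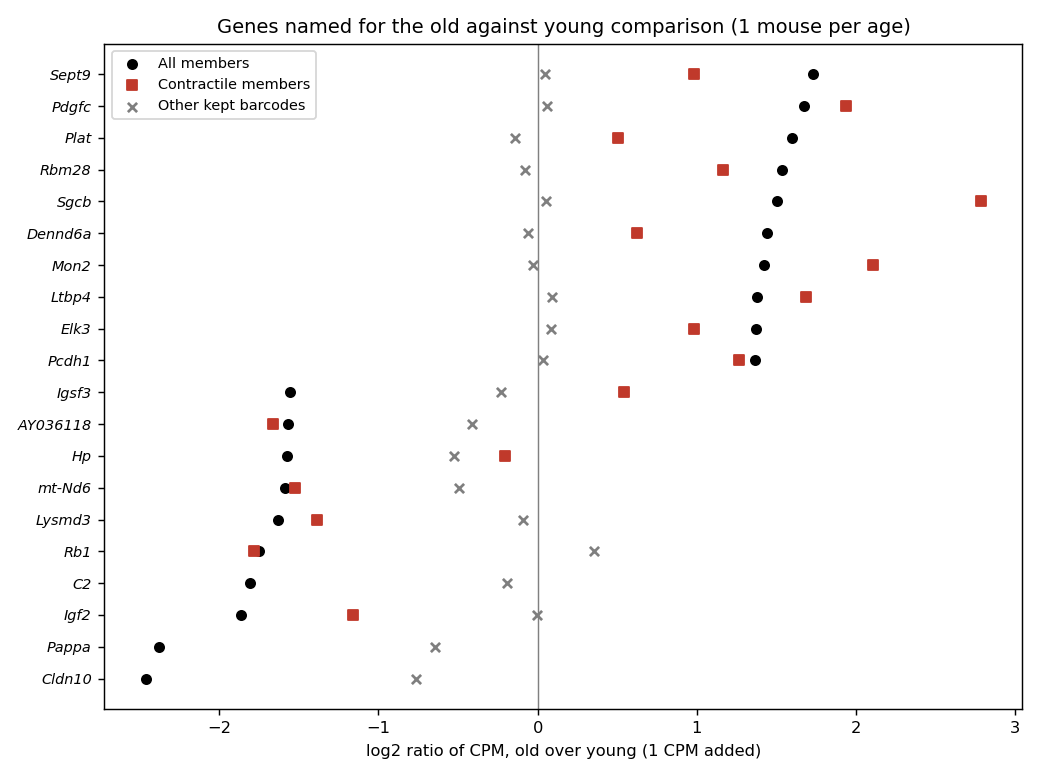
Log2 ratio of CPM in the old over the young mouse, with 1 CPM added, for the 20 genes named by rule, in all members, in contractile members and in the other kept barcodes, 1 mouse per age. Contractile points are left out where neither mouse had more than 3 UMIs. Sgcb (2.78), Mon2 (2.10) and Pdgfc (1.94) are further apart in contractile members than in all members, and Hp (-0.21) is near 0 there.

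The CD24 antibody count did not enter the rule. Its median was 87 UMIs in young members (quartiles 60.5 and 164) and 67 in old members (51 and 115), against 93 and 95 in the other barcodes. In the contractile subset the median was 81 and 60, and in members with Lepr and Adipoq it was 109 and 203, against 88 and 87 in non-members with both genes. Fibroblast barcodes, with at least 3 fibroblast genes, had 78 and 81, and erythroid barcodes, which carry CD24, had 2863 and 4737.5. Above a threshold set by Otsu's method in each library lay 12 of 83 young members (14.5%, 7.70 to 23.9) and 6 of 85 old members (7.06%, 2.63 to 14.7), and 15.6% and 13.7% of the others. The mRNA of Cd24a stood at 29.6 and 13.8 CPM in members against 116 and 171 CPM in the others. The interval of the antibody median was 75 to 107 in young members, which includes that of the others (91 to 94). In old members it was 58 to 88, which lies below that of the others (93 to 98). This old interval includes that of old fibroblast barcodes (78 to 85) and overlaps that of old Lepr and Adipoq non-members (84 to 90). Relative to the RNA UMIs of each barcode, the median antibody count was higher in young members than in the others and lower in old members.

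**Figure D5:**
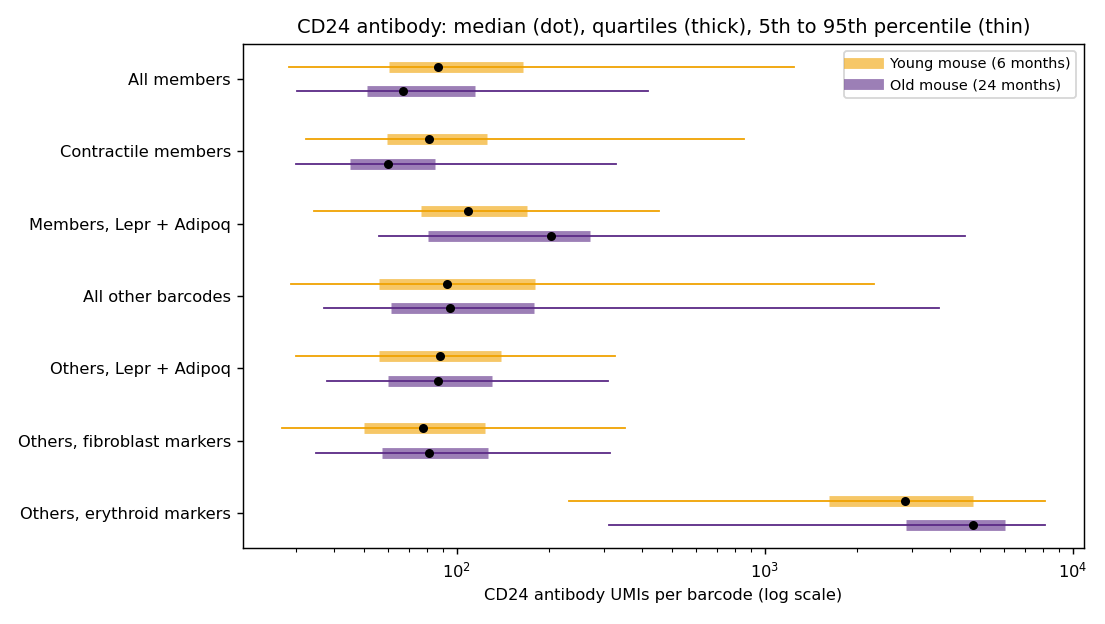
CD24 antibody UMIs per barcode on a log scale, with the median (dot), the quartiles (thick line) and the 5th to 95th percentile (thin line), in members, in their subsets and in other kept barcodes of each mouse. Members lie at 87 and 67 UMIs and erythroid barcodes at 2863 and 4737.5.

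Cdkn2a encodes p16, whose promoter fragment drives the transgene, and also p19Arf. The paper describes its transcripts as hard to separate in standard single-cell libraries, so the UMIs cannot be read as p16 alone. Cdkn2a had 1 UMI in young members, and 90 UMIs in 7 old members. A pair of old members held 66 and 16 of these, together 91.1%, and they were among the deepest, with 51016 and 47602 UMIs. The first had no subset. The second was in the contractile subset with 10 contractile genes, the lowest count there, against a median of 17 in the old mouse. It had 8.61 Acta2 UMIs per 10000, against a median of 137, and no Myh11 UMI. Cdkn1a, the p21 gene, stood at 442 and 307 CPM in members against 227 and 165 CPM in the others.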

How the data were processed

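RNA and CD24 antibody counts came from 1 matrix per mouse. The authors deposited raw UMI counts of 32285 genes and 1 antibody per barcode, written per the file headers by Cell Ranger 6.1.1, with mm10 named in the submitters' processing notes; the annotation release is not given in the sources used here. Barcode and gene files hold names only. Columns of per-sample values not used numbered 0. Kept barcodes numbered 10063 and 5607 after removal of 1308 and 1122, with 81076421 and 66702846 RNA UMIs. The libraries shared 25 barcode sequences, none of them between members.

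UMIs were summed per group and given as CPM with 1 CPM added to ratios (Python 3.11.15, NumPy 2.4.6, SciPy 1.17.1, pandas 2.3.3). Genes compared with the other barcodes needed 20 UMIs in each library and 10 CPM in either group. Doublets were called with Scrublet (scanpy 1.11.5, seed 1) and kept. Named genes were those of the lists, the 15 highest and 10 lowest ratios, detected in at least 10% of barcodes with no barcode over 25% of the sum, and 10 genes per direction between ages, detected in at least 20% of the members of the higher mouse and apart from the other barcodes by at least 1 on the log2 scale. Erythroid barcodes had at least 3 genes of that list. The steps were tested on simulated data. Members and lists were chosen with earlier results of these data known.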

Additional observations from a re-analysis of the deposited data

Results flagged for a closer look

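Among the barcodes that the filter removed, 5 of the old mouse and 3 of the young mouse had UMIs in at least 3 of the rule genes. The old ones were noted because the filter keeps them out of every comparison, and their values were not used.

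Retnlg, a gene of neutrophils, had a log2 ratio of members over other barcodes of 1.06 for the young mouse, while for the old mouse it was -8.15. It was noted because the direction was opposite in the 2 mice, and the difference was not tested. A single young member held 99.6% of the 243 Retnlg UMIs of the young members, and the old members had 1 UMI.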

How the results depend on the processing

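Of 90 values recomputed under alternatives, 46 moved by less than their interval or less than 1.5 times for counts. Of the 40 log2 ratios among the 90, only 9 did so, while 27 moved further and 4 reversed. No paired analysis was possible because each age had 1 mouse and no test was made. The young share of members of 0.825% became 0.537% with at least 4 rule genes, 0.624% after thinning to 2000 UMIs and 0.598% without barcodes that had 3 or more of 5 stroma genes, and the old share of 1.52% became 1.11%, 1.17% and 1.11%. With at least 4 rule genes 98.4% of old members had Myh11. Genes past 4-fold between members and others numbered 556, and 991, 1211 and 869 under the same 3 alternatives. Without the Lepr and Adipoq members, an alternative chosen after seeing the data, they numbered 877. The log2 ratio of the summed stroma genes in young members was 0.07 and reversed to -2.21, -2.11 and -3.64 under the 3 alternatives and to -3.51 without the Lepr and Adipoq members, as these hold the stroma UMIs. Genes past 2-fold between ages numbered 218, 865 after thinning and 4274 with no minimum CPM, and the cause was not tested. In the contractile subset they numbered 232, and 197 without the deepest old member, also chosen after seeing the data. With a single mouse per age, differences between mice cannot be measured, and in the Kcnj8 subset 4 and 8 members limit every value.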

Other observations

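The members that entered no subset differed between the mice. The 5 young ones had a median depth of 1982 UMIs and a median CD24 antibody count of 1086, and 4 of them lay above the CD24 threshold. Rgs5 reached 361 UMIs per 10000 among them while Acta2 had a median of 0.492. The 4 old ones had a median depth of 20475.5 UMIs and a median antibody count of 189, and none lay above the threshold.

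Genes of the marrow niche outside the stroma list were mostly no higher in members. Of 11 tested genes Nes, which marks perivascular cells of marrow, was higher past 4-fold, at 38.8 and 77.3 CPM against 2.14 and 3.13 CPM, and Spp1 and Ly6a were lower. Bglap, the osteocalcin gene of osteoblasts, had 90 UMIs in young members and 4 in old ones, and 1 young barcode held 41.1% of the former.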
